A study of Mus musculus with 28 samples.

Results

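Open chromatin was examined at 5 fibroblast matrix gene loci, those of Col1a1, Col1a2, Col3a1, Fn1 and Postn, in 28 ATAC-seq libraries from mouse fibroblasts before and during reprogramming. ATAC-seq uses a transposase that inserts adapters where DNA is accessible, and a peak is a stretch where one library has more insertions than its local background. The loci were taken as fixed windows of the mouse build mm9: Col1a1 at chr11:94760000-94860000, Col1a2 at chr6:4410000-4540000, Col3a1 at chr1:45320000-45450000, Fn1 at chr1:71580000-71760000 and Postn at chr3:54110000-54250000. Overlapping peaks of all libraries were merged into regions, and a region counted as called in a library with 1 or more peaks on it. The windows held 79 of the 172177 regions of the genome, and 58 of the 79 were called in at least 2 libraries, as were 109954 regions of the genome. Col1a1 had 24 regions with 16 in at least 2 libraries, Col1a2 had 18 with 13, Col3a1 had 13 with 11, Fn1 had 15 with 9, and Postn had 9, all of them in at least 2 libraries.

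All cells were Tet2-/- mouse embryonic fibroblasts (MEFs) from e12.5 embryos, with a doxycycline-inducible OKSM cassette (Oct4, Klf4, Sox2 and Myc) and the rtTA activator; the strain label reads V6.5 129XBI/6. There were 7 groups with 4 libraries in each: untreated MEFs at day 0, and cells at day 5 and at day 10 of reprogramming that had received pMXs retrovirus carrying Tet2-E (a mutant that the series calls stalling), Tet2-WT or no insert (empty vector). The reprogramming cells grew on mitomycin-treated MEF feeders in 2i/LIF medium with doxycycline and were sorted on SSEA1-RFP, whereas the labels name no sort for the untreated MEFs, which also received no virus. Time in reprogramming, virus, medium, feeders and sorting therefore cannot be told apart in a comparison with MEFs, and the share of feeder DNA was not measured. The labels do not say whether replicates came from separate cultures or animals; p-values therefore reflect only library-to-library spread, possibly technical.

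Fibroblasts fill connective tissue with matrix. Col1a1 and Col1a2 encode the chains of type I collagen, the main fibrillar collagen of skin, tendon and bone, and Col3a1 encodes the chain of type III collagen, which forms mixed fibrils with it. Fn1 encodes fibronectin, a glycoprotein to which cells attach through integrins and on which collagen is deposited; it is also made by many cell types other than fibroblasts. Postn encodes periostin, a secreted matricellular protein of collagen-rich tissue such as periosteum and periodontal ligament. In somatic reprogramming, fibroblasts lose their mesenchymal programme before pluripotency genes are switched on.

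No mm9 annotation was used here, so regions are given by position and not as promoter, exon or intron. By gene order in RefSeq on GRCm38.p6, Col1a1 lies between Gm11544 and Sgca, Col1a2 between Bet1 and Casd1, Col3a1 between Gulp1 and Col5a2, Fn1 between Atic and Mreg, and Postn between Trpc4 and Supt20. A window may hold sequence of such a neighbour, so a region is said to lie in the window of a gene and not to belong to it.

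RefSeq promoter sequences were found for 3 of the 5 genes, in 4 entries. All 5 genes were looked up and only these had entries, which show which of a few fixed motifs those starts carry. Each is 250 bases ending just before the annotated start, on the plus strand of GRCm38.p6; these coordinates must not be set against the mm9 positions of the regions. Capitals mark letters that match, on either strand, one of the motifs named after the sequences.
Col1a2 chr6:4505368-4505617: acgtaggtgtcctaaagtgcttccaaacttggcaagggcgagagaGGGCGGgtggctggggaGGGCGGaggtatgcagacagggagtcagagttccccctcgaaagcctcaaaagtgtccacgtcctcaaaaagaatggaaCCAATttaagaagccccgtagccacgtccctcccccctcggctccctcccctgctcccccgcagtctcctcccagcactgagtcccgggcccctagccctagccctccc
Col3a1 chr1:45311288-45311537: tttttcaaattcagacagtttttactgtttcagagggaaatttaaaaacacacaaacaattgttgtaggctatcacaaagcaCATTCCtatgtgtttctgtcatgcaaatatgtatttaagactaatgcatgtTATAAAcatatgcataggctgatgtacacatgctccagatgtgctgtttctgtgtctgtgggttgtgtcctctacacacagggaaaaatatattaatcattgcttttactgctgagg
Postn, entry 1, chr3:54359017-54359266: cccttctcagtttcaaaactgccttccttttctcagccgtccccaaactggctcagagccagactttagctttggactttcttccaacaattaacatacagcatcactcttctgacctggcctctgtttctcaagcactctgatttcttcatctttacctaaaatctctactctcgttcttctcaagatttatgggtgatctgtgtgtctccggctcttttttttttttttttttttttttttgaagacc
Postn, entry 2, chr3:54360857-54361106: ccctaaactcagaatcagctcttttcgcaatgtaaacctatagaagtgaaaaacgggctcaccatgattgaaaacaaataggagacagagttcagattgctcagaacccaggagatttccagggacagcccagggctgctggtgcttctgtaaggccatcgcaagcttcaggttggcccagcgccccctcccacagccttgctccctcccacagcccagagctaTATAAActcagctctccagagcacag

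The Col1a2 promoter was GC-rich at 62.0% GC and held 2 matches to GGGCGG, the letters bound by SP and KLF factors, and 1 match to the NFY box, whose letters are CCAAT. The Col3a1 promoter was AT-rich at 35.2% GC and held 1 match to the TEAD motif with the letters GGAATG, here on the minus strand, and 1 match to the TATA box, searched as TATAAA. Of the Postn entries, the second (52.0% GC) held 1 TATA box match and the first (40.4% GC) held none of the motifs. Among 32851 mouse promoters of the same length, with a median of 52.4% GC, 32.7% held the SP/KLF letters, 33.8% the NFY letters, 12.6% the TEAD letters and 12.4% the TATA box letters. The AP-1 motif, searched as TGANTCA, stood in 6.75% of all promoters and in none of the 4 shown. A match describes letters in a window and not a bound site.

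The MEF lists held 41450 to 72332 peaks, the day 5 lists 41580 to 60361 and the day 10 lists 27918 to 50733. Depth was read from the genome-wide background pileup, the mean number of stacked reads or fragments per base that the peak caller expected, recovered from each deposited fold and −log10 p: it averaged 0.503 ± 0.113 in MEFs (SD, n = 4), 0.865 ± 0.0732 at day 5 (SD, n = 12) and 0.522 ± 0.115 at day 10 (SD, n = 12). Day 5 libraries were thus the deepest, while MEF and day 10 libraries overlapped in depth. MEF and day 10 lists overlapped in number of peaks as well, with means of 55690 in MEFs and 37800 at day 10. A region with no peak is one that did not pass the peak caller at that depth, where the lowest summit pileups were 5 to 7; it is not shown to be closed. In bulk cells, fewer cells with an open region and less opening per cell cannot be told apart.

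The number of peaks in the windows went in different directions at the 5 loci. Postn and Col3a1 had fewer peaks by day 5, Col1a1 and Col1a2 had fewer peaks by day 10, and Fn1 had more peaks than MEFs at both later days. The day 10 calls at Col1a1, Col3a1 and Fn1 were lost in some other settings, given below. Col1a2 at day 5 did not pass with full lists and passed in several other settings. The counts were compared by 2-sided exact permutation tests over libraries, with Benjamini-Hochberg adjustment over the 5 windows and all 130 kb tiles of the genome together. At day 5, 2 windows had fewer peaks than in MEFs and 1 had more, where 20.4% of 16560 tiles had fewer and 9.47% had more. At day 10, 4 windows had fewer and 1 had more, where 33.9% of 16665 tiles had fewer and 4.0% had more. Fewer peaks at day 10 was therefore a common state of the genome, and the count of 4 windows is read against it.

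**Figure D1:**
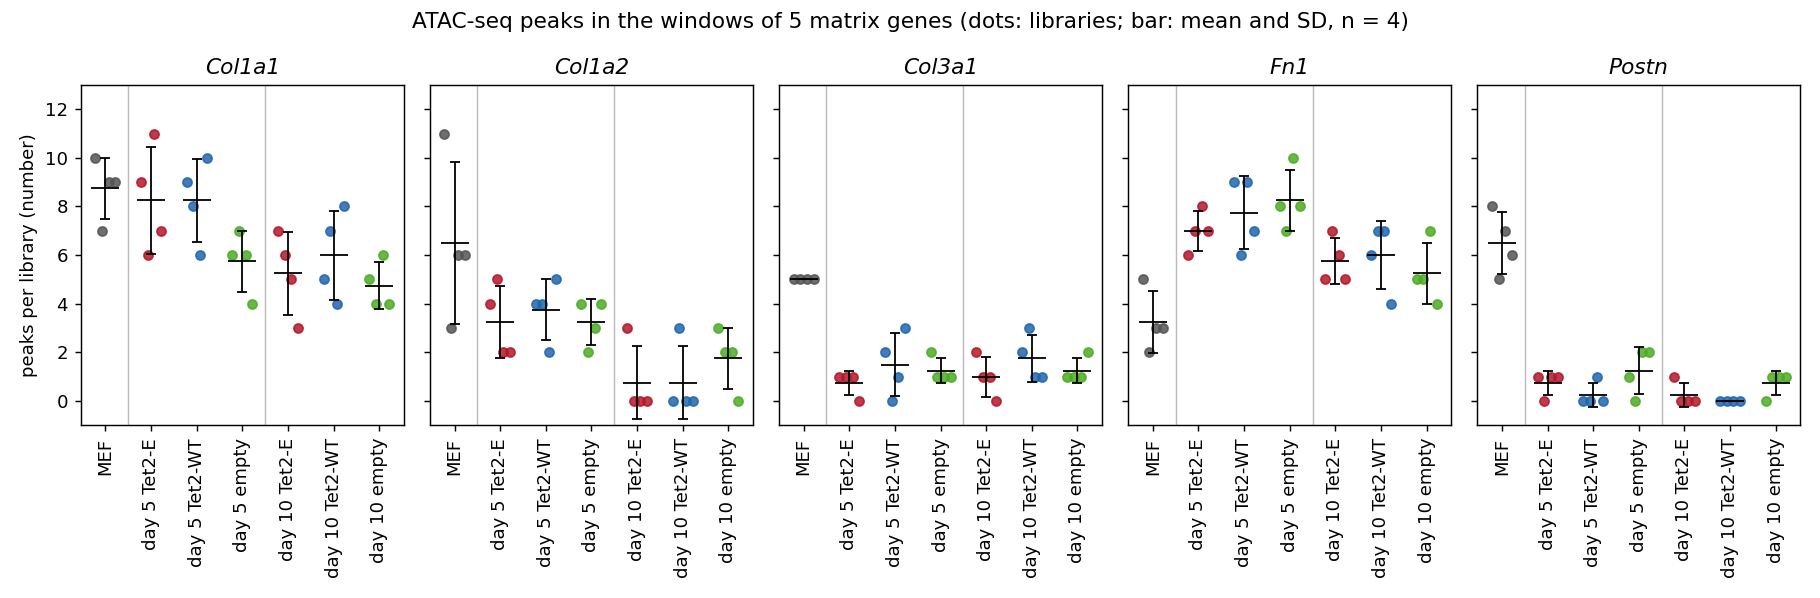
Peaks overlapping each of the 5 windows (vertical axis, number of peaks) in each library, by group from MEFs through day 5 to day 10; points are libraries, and bars give the group mean and SD (n = 4). Day 10 libraries have 0 to 3 peaks at Col3a1 and 0 or 1 at Postn, where the 4 MEF libraries have 5 and 5 to 8, while at Fn1 the day 5 libraries, with 6 to 10 peaks, all lie above the MEF libraries, with 2 to 5.

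At Col1a1, peaks thinned out slowly and unevenly. The MEF libraries had 10, 7, 9 and 9 peaks; the day 5 libraries ranged between 4 and 11 with a median of 7.0, and the day 10 libraries between 3 and 8 with a median of 5.0. The means were 8.75 ± 1.26 (SD, n = 4), 7.42 ± 2.02 (SD, n = 12) and 5.33 ± 1.5 (SD, n = 12). The day 5 range spans the MEF values, and the difference from MEFs of −1.33 peaks did not pass (adjusted p = 0.465, exact permutation test). At day 10 the difference was −3.42 peaks (adjusted p = 0.0101, exact permutation test), with 1 day 10 library at 8 and 2 at 7 reaching the lowest MEF values. With lists cut to equal length that difference was −1.08 (adjusted p = 0.397, exact permutation test), and per 10000 peaks of the library it was −0.173 (adjusted p = 0.567), so the call at Col1a1 moved with the length of the lists.

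Single regions at Col1a1 went both ways. Whether a region was called by more or fewer libraries was tested by Fisher's exact test (2-sided, day 5 or day 10 against MEF), adjusted by Benjamini-Hochberg over all regions of the genome. Over the 5 loci, 11 of 53 tested regions were called less often at day 5 than in MEFs (20.8%) and 4 more often (7.55%), where 16.1% and 9.81% of all 99090 tested regions were. At day 10, 16 of 48 were called less often (33.3%) and 2 more often (4.17%), where 22.6% and 5.66% of all 89226 tested regions were. The counts of lower regions lean on regions that 3 of 4 MEF libraries called: without MEF replicate 1 they were 6 at day 5 and 9 at day 10, and without replicate 3 or 4 they were 7 and 9. Over the genome the counts fell too. Without MEF replicate 1 they went from 15980 to 9312 at day 5 and from 20123 to 12485 at day 10. The Col1a1 window had 2 lower and 2 higher among 16 at day 5, and 5 lower and none higher among 15 at day 10.

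The regions named by rule, here and at the other loci, were chosen on these same calls. Their p-values against MEFs therefore largely follow from the choice and are no separate support. The region chr11:94794946-94795228 was called in none of the 24 later libraries and in all 4 MEF libraries (adjusted p = 0.00449 at day 5 and 0.00374 at day 10, Fisher's exact test). Its fold, the authors' own ratio of summit to local background within a list, was 6.09, 5.23, 5.9 and 5.98 in the 4 MEF lists. The region chr11:94813591-94813931 showed the opposite: all 12 day 5 libraries called it, with folds between 6.1 and 8.83 (adjusted p = 0.00449, Fisher's exact test), 8 of 12 day 10 libraries did (adjusted p = 0.169), and no MEF library did. Those 8 were all 4 Tet2-E, 3 Tet2-WT and 1 empty vector library, a split among vectors that did not pass the genome-wide test. The region chr11:94840138-94840590 was called in all 28 libraries with a median fold of 9.74. It is 1 of 3 such constant regions among the 58 of the 5 loci in at least 2 libraries. Of the 109954 such regions of the genome, 7.04% were constant.

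Outside the naming rule, and so chosen after the values were seen, chr11:94798199-94798810 was called in 1 MEF, 12 day 5 and 11 day 10 libraries (adjusted p = 0.0311 and 0.0855, Fisher's exact test). Its summits spread over 502 bp, so it may join peaks at different positions. With a call needing peaks over 50% of the region, its difference in calling share at day 5 was 16.7 points, and the call was lost. With lists of equal length its day 10 difference was 91.7 points and passed (adjusted p = 0.0163, Fisher's exact test). The other 4 regions called less often at day 10 at Col1a1 were also outside the rule. They were chr11:94779186-94779353 with no later and 3 MEF libraries, and, in the order MEF, day 5 and day 10, chr11:94777873-94778132 with 3, 2 and 0 libraries, chr11:94790003-94790437 with 4, 5 and 2, and chr11:94831508-94831769 with 3, 4 and 0.

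At Col1a2, the second chain of type I collagen, mean peak numbers were lower at each later day, and the difference from MEFs passed at day 10. The MEF libraries had 11, 3, 6 and 6 peaks, the day 5 libraries 2 to 5 with a median of 4.0, and the day 10 libraries 0 to 3 with a median of 0.0. At day 10, 7 of 12 libraries had no peak in the 130 kb window. The means were 6.5 ± 3.32 (SD, n = 4), 3.42 ± 1.16 (SD, n = 12) and 1.08 ± 1.38 (SD, n = 12). The day 5 difference of −3.08 peaks did not pass (adjusted p = 0.0551, exact permutation test), whereas the day 10 difference of −5.42 did (adjusted p = 0.0101). MEF replicates 1 and 2, with 11 and 3 peaks here, were also those with the most and the fewest MEF peaks genome-wide (72332 and 41450). Without replicate 1 the day 5 difference was −1.58 (adjusted p = 0.228) and without replicate 2 it was −4.25 (adjusted p = 0.0153, exact permutation tests). With all libraries, covered base pairs in place of peaks gave −1010 bp (adjusted p = 0.00385, exact permutation test).

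No Col1a2 region met the naming rule. Those past the threshold, chosen after their values were seen, were 2 of 11 called less often at day 5 and 3 of 9 at day 10, with none called more often. These are 18.2% and 33.3%, where 16.1% and 22.6% of all tested regions of the genome were called less often. The regions chr6:4481094-4481268 and chr6:4511258-4511591 were each called in no later library and in 3 MEF libraries (adjusted p = 0.0311 at day 5 and 0.0276 at day 10, Fisher's exact test). With replicate number as a stratum neither passed (adjusted p = 0.0601 and 0.0552, stratified exact test). The first was lost with lists of equal length (adjusted p = 0.134 and 0.137, Fisher's exact test). The second was lost with peaks of −log10 q 5 or more (adjusted p = 0.129 and 0.118, Fisher's exact test). The region chr6:4507721-4507974 went later: 4 of 4 MEF, 7 of 12 day 5 and 0 of 12 day 10 libraries called it, with folds of 5.0 to 8.34 in day 5 lists and 6.92 to 9.69 in MEF lists. Its day 10 against MEF comparison passed (adjusted p = 0.00374), and its day 10 against day 5 comparison did not (adjusted p = 0.136, stratified exact test). A like sequence of calls was seen at chr6:4438344-4438678, with 4, 11 and 4 libraries, and neither comparison passed there.

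At Col3a1, the peaks that MEF libraries shared were nearly gone by day 5. Each of the 4 MEF libraries had 5 peaks, the day 5 libraries had 0 to 3 with a median of 1.0, and the day 10 libraries had 0 to 3 with a median of 1.0. No later library reached the MEF value. The differences were −3.83 peaks at day 5 (adjusted p = 0.00556) and −3.67 at day 10 (adjusted p = 0.00379), by exact permutation tests in which both raw p of 0.000549 are the smallest that 12 against 4 libraries can give. With lists of equal length the day 10 difference was −1.17 (adjusted p = 0.0994, exact permutation test).

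At both days 3 Col3a1 regions were called less often and none more often, among 10 tested at day 5 and 9 at day 10. Of all tested regions of the genome, 16.1% and 22.6% were called less often. The region chr1:45412807-45413144 was called in no later library and in all 4 MEF libraries, with folds of 6.0, 6.73, 7.5 and 7.44 (adjusted p = 0.00449 and 0.00374, Fisher's exact test). Of the others, chosen after their values were seen, chr1:45326233-45326584 was called in 1 later library, day 5 Tet2-WT replicate 4, with a fold of 4.34, and had folds of 10.8, 10.0, 7.33 and 8.23 in MEF lists. With calls needing 50% cover its difference was −50.0 points at both days (adjusted p = 0.124 and 0.098, Fisher's exact test). The region chr1:45373044-45373264 was called in no later library and in 3 MEF libraries. The Col3a1 region that most later libraries called, chr1:45370879-45371068, was called in 1 MEF, 5 day 5 and 9 day 10 libraries, a difference that did not pass (adjusted p = 0.242 at day 10, Fisher's exact test).

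Fn1 stood apart from the 4 other loci in direction. The MEF libraries had 5, 2, 3 and 3 peaks, the day 5 libraries 6 to 10 with a median of 7.5, and the day 10 libraries 4 to 7 with a median of 5.5. Every day 5 library exceeded every MEF library, and day 10 libraries overlapped the MEF range at 4 and 5. The differences from MEFs were 4.42 peaks at day 5 (adjusted p = 0.00556) and 2.42 peaks at day 10 (adjusted p = 0.0196), by exact permutation tests. The day 10 call was lost without MEF replicate 2, 3 or 4 (adjusted p = 0.0648, 0.0577 and 0.0557, exact permutation tests). Covered length gave no such difference at day 10. Peaks covered 1681 ± 348 bp of the window in MEFs (SD, n = 4), 2368 ± 385 bp at day 5 and 1533 ± 392 bp at day 10 (SD, n = 12 each). The day 10 difference in covered length was −148 bp (adjusted p = 0.584, exact permutation test), the opposite direction. Peaks were narrower at day 10, with a mean of list medians of 148.4 bp, than in MEF lists, with 194.5 bp. A count of peaks is not a count of regions, since a library may have several peaks on 1 region. At Fn1, chr1:71699164-71700366 held 44 peaks in 28 libraries, up to 3 in a library, and chr1:71603399-71604201 held 33 in 28. The part of such splitting in the Fn1 differences was not tested.

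Among the Fn1 regions, 2 that no MEF library called were called in nearly all later libraries. The region chr1:71719884-71720500 was called in 0 of 4 MEF libraries, 12 of 12 day 5 and 12 of 12 day 10 libraries (adjusted p = 0.00449 at day 5 and 0.00374 at day 10, Fisher's exact test). Its folds were 7.7 to 13.4 at day 5 and 7.72 to 13.3 at day 10, and its median place within a list was the 91.3rd percentile by fold, with 68.1 as the lowest. The region chr1:71692584-71692997 was called in 0 MEF, 12 day 5 and 11 day 10 libraries (adjusted p = 0.00449 and 0.0156, Fisher's exact test), with folds of 7.09 to 11.5 and 5.92 to 10.8; the missing library was day 10 Tet2-WT replicate 4. With calls needing peaks over 50% of the region, chr1:71719884-71720500 was still called in 75.0 percentage points more of the day 10 libraries than of the MEF libraries, at an adjusted p of 0.0654 (Fisher's exact test).

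Both Fn1 regions that all 4 MEF libraries called were called in every later library. The regions chr1:71603399-71604201 and chr1:71699164-71700366 were called in all 28 libraries, with median folds of 9.97 and 7.78. The second is 1203 bp wide, and 6166 bp lie between it and the new region on its lower-coordinate side. With calls needing 50% cover the second had a difference of −91.7 percentage points in calling share at day 10 against MEFs (adjusted p = 0.0197, Fisher's exact test). No Fn1 region was called only in MEFs among the 9 in at least 2 libraries, and none was called less often at either day, while 2 of 8 at day 5 and 2 of 6 at day 10 were called more often. Of all tested regions of the genome, 9.81% at day 5 and 5.66% at day 10 were called more often, and 16.1% and 22.6% less often.

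Fn1 also had regions seen mostly at day 5, chosen here after their values were seen. The region chr1:71738550-71739158 was called in 1 MEF, 11 day 5 and 2 day 10 libraries, and chr1:71726785-71727152 in 0, 7 and 0. For day 10 against day 5 the first had an adjusted p of 0.0507, the lowest at the 5 loci, and the second of 0.145, by the exact test stratified by vector. Their median day 5 folds were 6.56 and 4.92, and day 5 libraries were the deepest; the part of depth in these calls was not tested.

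Postn lost nearly all of its peaks. The MEF libraries had 8, 5, 7 and 6 peaks; the day 5 libraries had 0 to 2 with a median of 1.0, and the day 10 libraries 0 or 1 with a median of 0.0. No peak was left in the 140 kb window in 5 of 12 day 5 and 8 of 12 day 10 libraries, and the groups did not overlap with MEFs. The means were 6.5 ± 1.29 (SD, n = 4), 0.75 ± 0.754 (SD, n = 12) and 0.333 ± 0.492 (SD, n = 12). The differences from MEFs were −5.75 peaks at day 5 (adjusted p = 0.00556) and −6.17 at day 10 (adjusted p = 0.00379, exact permutation tests).

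The Postn regions called in all 4 MEF libraries and no later one are given with their folds. The region chr3:54131868-54132145 had folds of 9.64, 7.89, 12.9 and 9.87 in the 4 MEF lists, and chr3:54235596-54235854 had 10.6, 5.74, 8.66 and 5.49; no later library called either (adjusted p = 0.00449 at day 5 and 0.00374 at day 10 for each, Fisher's exact test). With lists of equal length the second was lost as a call (−50.0 points in calling share, adjusted p = 0.134 at day 5 and 0.137 at day 10, Fisher's exact test). In all, 4 of 8 Postn regions were called less often at day 5 and 5 of 9 at day 10, and none more often. Of all tested regions of the genome, 16.1% and 22.6% were called less often. Outside the naming rule, and chosen after the values were seen, chr3:54217305-54217634 was called in no later and 3 MEF libraries, and chr3:54247744-54248164 in 1 day 5 and 4 MEF libraries. The region chr3:54162446-54162863 was still seen at day 5: 4 day 5 libraries called it with folds of 4.84 to 6.35, no day 10 library did, and its folds were 9.39 to 12.8 in the 4 MEF lists (adjusted p = 0.183 at day 5 and 0.00374 at day 10, Fisher's exact test). With lists of equal length its day 5 difference of −91.7 points passed (adjusted p = 0.0156, Fisher's exact test). At day 10 the 2 Postn regions with any call, again chosen after their values were seen, were chr3:54157168-54157515, called in 3 MEF, 4 day 5 and 2 day 10 libraries, and chr3:54161541-54161640, called in 2 day 10 libraries and no earlier one.

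**Figure D2:**
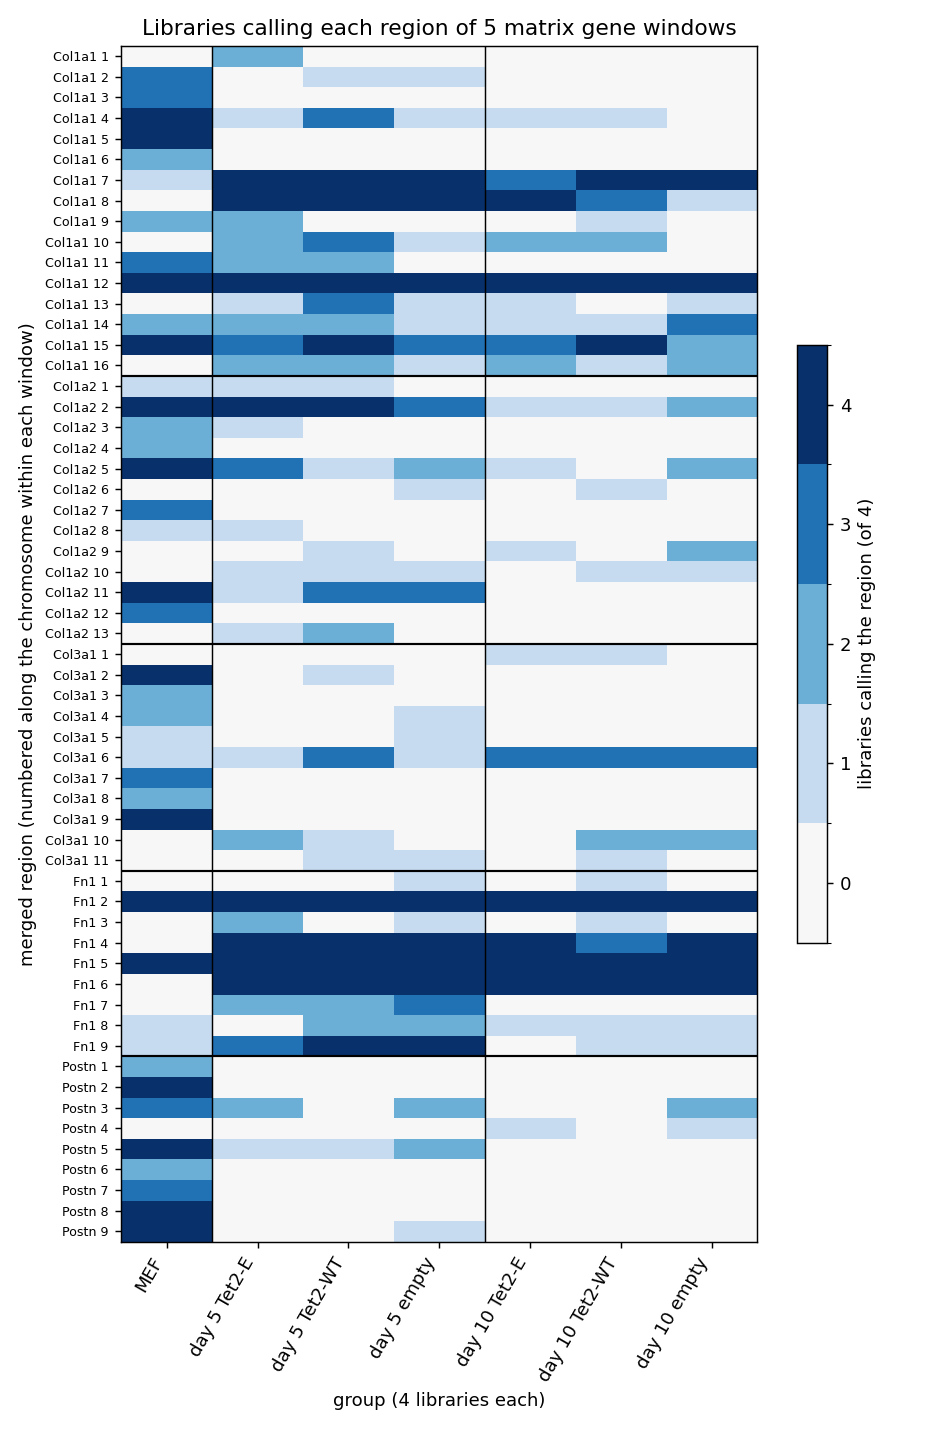
Calling of the 58 regions found in at least 2 libraries: rows are regions numbered within each locus by position, columns are the 7 groups from MEFs to day 10, and colour gives the number of the 4 libraries that called the region. Fn1 has 2 rows filled in every group and 2 that fill after MEFs. Most rows that all 4 MEF libraries called at Postn and Col3a1 are empty or nearly so from day 5 on. The exception is chr3:54162446-54162863 at Postn, with 1 Tet2-E, 1 Tet2-WT and 2 empty vector libraries at day 5. Col1a1 holds rows of each kind.

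**Figure D3:**
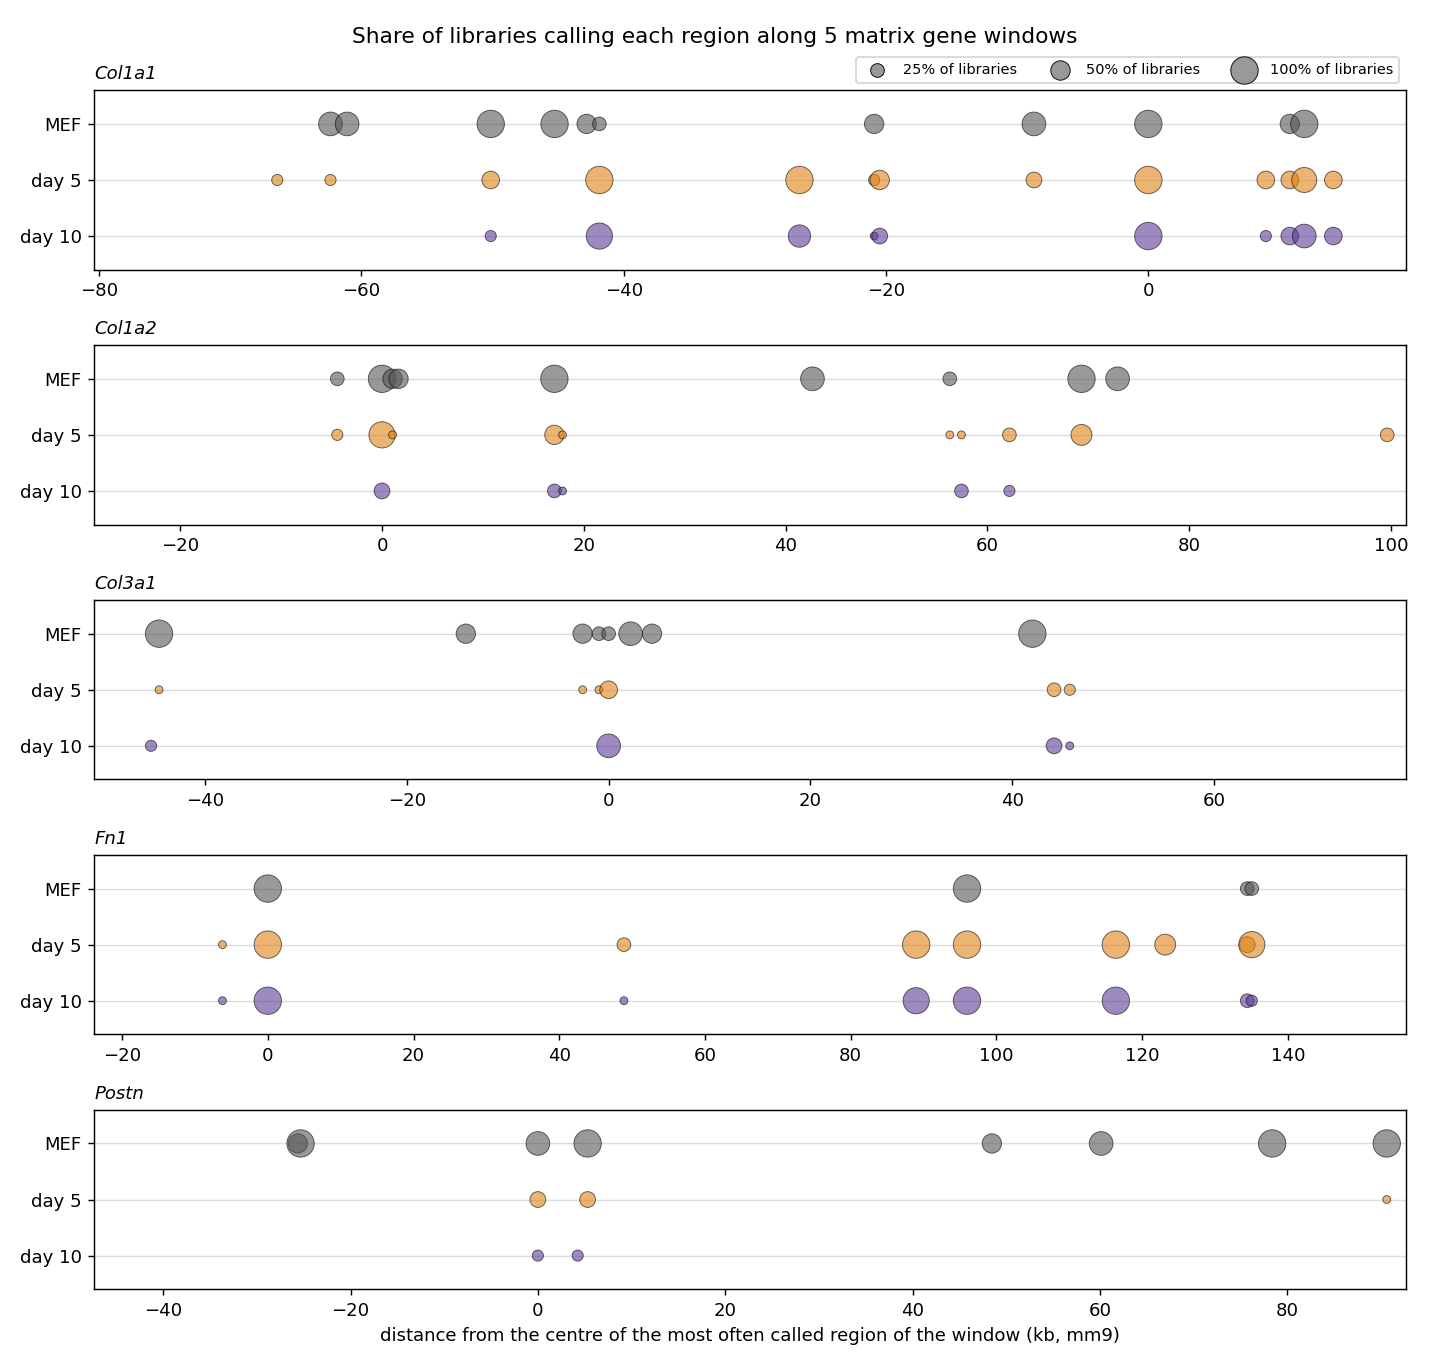
Place of the regions in each window: the horizontal axis is distance in kb from the centre of the most often called region of the window (the first of them at Fn1), rows are MEFs, day 5 and day 10, and the area of a circle is proportional to the share of libraries that called the region. The large MEF circles of Postn and Col3a1 are absent or small in the later rows, with 1 Col3a1 region at the zero point larger at day 10, and Fn1 shows large circles at day 5 and day 10 where the MEF row has none.

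Across the 58 regions, 15 were called in MEFs only and 18 in no MEF library, against 17.8% and 40.9% of the 109954 regions of the genome. Of the 15 regions in MEFs only, 5 were at Postn, 4 at Col3a1, 3 each at Col1a1 and Col1a2, and 0 at Fn1. The median change in the share of libraries calling a region was −33.3 percentage points at day 5 and −50.0 at day 10 over the tested regions of the 5 loci, where it was 0.0 and −8.33 over all tested regions. The 21 regions called in 1 library only, 8 of them in a MEF, 9 in a day 5 and 4 in a day 10 library, entered no test.

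How much of the MEF landscape remained was described from the 15 regions that all 4 MEF libraries called. A day 5 library called 40.0 to 53.3% of them, where the share of the 27904 such regions of the genome was 50.1 to 61.8%. A day 10 library called 30.0% ± 6.67 of them, against 45.1% ± 3.37 of those of the genome (SD, n = 12 libraries). Of the 15, 4 were called in no later library, as were 22.9% of the 27904 of the genome. The loci were unlike each other. Both Fn1 regions were called in all 24 later libraries, and the 4 Col1a1 regions in 56.2% at day 5 and 47.9% at day 10. The 3 Col1a2 regions were called in 66.7% and then 19.4%, the 4 Postn regions in 10.4% and 0.0%, and the 2 Col3a1 regions in 4.17% and 0.0%. With 2 to 4 regions per locus these shares are descriptions with no test.

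**Figure D4:**
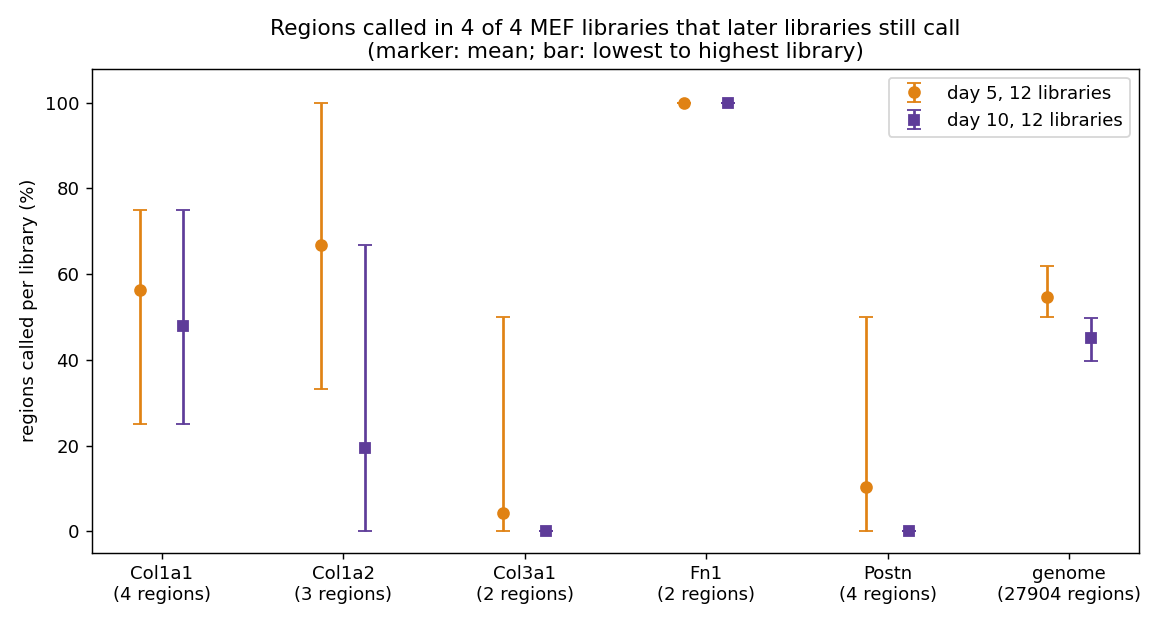
Share of the regions called in all 4 MEF libraries that each later library also calls (vertical axis, percent), per locus and for the genome, at day 5 and day 10 (12 libraries each); markers are means and bars run between the lowest and the highest library. Fn1 lies at the top of the axis in every library, Postn and Col3a1 have means of 10.4% and 4.17% at day 5 and 0.0% at day 10, and Col1a2 has a mean of 66.7% at day 5 and 19.4% at day 10.

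Day 10 was next set against day 5, with vector as a stratum. Fn1, Col1a2 and Col1a1 had fewer peaks at day 10 than at day 5, by −2.0 (adjusted p = 0.0149), −2.33 (adjusted p = 0.0124) and −2.08 peaks (adjusted p = 0.0403, exact permutation tests), where 21.3% of 16102 tiles had fewer and 0.441% had more. With lists of equal length the differences were −0.333 at Fn1, −0.5 at Col1a2 and −0.0833 at Col1a1 (adjusted p = 0.846, 0.355 and 1.0, exact permutation tests), so all 3 calls were lost when list length was held equal. Col3a1 (0.167 peaks, adjusted p = 0.937) and Postn (−0.417 peaks, adjusted p = 0.302) did not pass the exact permutation test. Of the 37 regions tested, 0 passed in either direction, with 4 at an unadjusted p under 0.05, where 1.0% of 83195 regions were called less often and 0.144% more often.

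The vectors were compared over both days together with day as a stratum, and no locus or region passed. At day 10, Col1a1 had 7, 6, 5 and 3 peaks with Tet2-E, 5, 7, 4 and 8 with Tet2-WT and 5, 4, 6 and 4 with empty vector. At day 5 it had 9, 6, 11 and 7 with Tet2-E, 9, 8, 6 and 10 with Tet2-WT and 6, 7, 6 and 4 with empty vector. The Tet2 vectors thus ran higher at Col1a1 with overlapping values: Tet2-WT exceeded empty vector by 1.88 peaks (p = 0.0384, adjusted p = 1.0) and Tet2-E by 1.5 peaks (p = 0.125, adjusted p = 1.0, exact permutation tests over 8 libraries each).

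Postn ran the other way. Tet2-WT libraries had 0, 0, 1 and 0 peaks at day 5 and none at day 10, against 1, 0, 2 and 2 and then 0, 1, 1 and 1 with empty vector. The difference was −0.875 peaks (p = 0.0306, adjusted p = 1.0, exact permutation test), and Tet2-E differed from Tet2-WT by 0.375 and from empty vector by −0.5 peaks (adjusted p = 1.0 for both). At Fn1 the vector differences were between −0.5 and 0.125 peaks, at Col3a1 between −0.75 and 0.375, and at Col1a2 between −0.5 and −0.25, all with adjusted p = 1.0 in the exact permutation tests. Region calls gave 0 of 32 for Tet2-WT against empty vector, 0 of 33 for Tet2-E against Tet2-WT and 0 of 30 for Tet2-E against empty vector, and none of these had an unadjusted p under 0.05. Across the genome the background was 0.0% of 74168, 73329 and 71000 regions and 0.0% of 15728, 15630 and 15444 tiles, with 525, 404 and 340 regions at an unadjusted p under 0.05. The lowest p that 8 against 8 libraries in 2 strata can give is 0.000408. A single region or tile at that p could not pass the adjustment over the genome on its own. These tests therefore cannot decide whether the vectors differ at a locus.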

How the data were processed

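Per the submitters' processing notes, Bowtie2, SAMtools, bedtools, MACS2 and build mm9 were used; versions, settings and any cut-site shift were not given in the sources used here. The authors deposited 1 peak list per library, with a score, a fold (the ratio of summit pileup to local background, 1 added to each), and the −log10 p and −log10 q at the summit. Each fold is a ratio within 1 list. Medians and ranges of folds over lists were used to name and describe regions, although the lists differ in background pileup. No fold was tested between libraries. Peaks of 20 chromosomes were merged (1 bp or more) into regions, and those in at least 2 of 28 libraries and 2 compared libraries were tested. Calls were compared by Fisher's exact test against MEFs and by a stratified exact conditional test otherwise. Peaks per window were compared by exact permutation tests beside 130 kb tiles, with adjusted p under 0.05 as the threshold (Python 3.11.15, SciPy 1.17.1, Benjamini-Hochberg). Scripts were tested on simulated data. Regions were named by the highest median fold, up to 4 per locus, within fixed classes: all 4 MEF and no later library, MEF and day 5 but not day 10, nearly all libraries, and no MEF but nearly all libraries of a later day. These classes use the same calls as the tests, so p-values of named regions are no separate support. Members and lists were chosen with earlier results of these data known. A list of other matrix genes was not analysed here, since no mm9 annotation was used.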

Additional observations from a re-analysis of the deposited data

Results flagged for a closer look

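Among 35 sets of 4 libraries (5 windows in 7 groups), 9 had 1 library far from the other 3 in its number of peaks. The cut-off flags about 1 in 20 sets of continuous values, a rate that does not hold for low counts with ties. With counts this low, a single peak is enough, so the 9 are not read as an excess over chance. At Col1a2, day 10 Tet2-E replicate 1 had 3 peaks and day 10 Tet2-WT replicate 2 had 3, against 0 in the other libraries of each group. The first has the highest background pileup of day 10 (0.768) and the second the longest day 10 list (50733 peaks); the part of depth was not tested. At Col3a1, day 5 Tet2-E replicate 4 had 0 peaks, and day 5 and day 10 empty vector replicates 1 and 4 had 2 each, where the others had 1. At Postn, day 5 Tet2-E replicate 2 and day 10 empty vector replicate 1 had 0 where the others had 1, and day 5 Tet2-WT replicate 3 and day 10 Tet2-E replicate 1 had 1 where the others had 0.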

How the results depend on the processing

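Regions called less often than in MEFs numbered 11 at day 5, against 7 with equal list lengths, 6 with the replicate block, 6 with regions in at least 4 libraries and 6 to 11 without 1 library (6 without MEF replicate 1, 7 without replicate 3 or 4). At day 10 they numbered 16, against 10, 8 with the block and 9 to 17 without 1 library (9 without MEF replicate 1, 3 or 4). Genome counts fell too. At day 5 they went from 15980 to 9357 with equal lists, 9054 with the block and 10601 with regions in at least 4 libraries. At day 10 they went from 20123 to 10213 with equal lists and 12174 with the block. Regions of the 5 loci called more often numbered 3 to 5 at day 5 and 2 to 3 at day 10 without 1 library, and 1 at day 10 with 50% cover. Day 10 against day 5 gave 1 lower region with 50% cover, 1 with regions in at least 4 libraries and 1 without any 1 library, where the full set gave 0; the last is chr1:71738550-71739158 at Fn1.

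For peaks per locus, Col1a2 at day 5 passed with equal lists (−2.75), stricter peaks of −log10 q 5 or more (−3.17), covered length (−1010 bp), per 10000 peaks (−0.427) and windows shortened by 20 kb (−2.83), and ranged between −4.25 and −1.58 without 1 library. At day 10 against MEF, calls were lost at Col1a1 (equal lists −1.08, per 10000 −0.173, shortened −2.0) and Col3a1 (equal lists −1.17), and Fn1 turned direction in covered length (−148 bp) and ranged between 2.0 and 3.0 without 1 library. For day 10 against day 5, calls were lost at Col1a1 (equal lists −0.0833, stricter −1.83, per 10000 −0.0769), Col1a2 (equal lists −0.5) and Fn1 (equal lists −0.333, stricter −1.33, per 10000 −0.0228); Col1a1 ranged between −2.33 and −1.78, and its call was lost without day 5 Tet2-E replicate 3, day 5 Tet2-WT replicate 4, day 10 Tet2-E replicates 3 or 4 or day 10 Tet2-WT replicate 3. Vector differences that turned direction, none of them called, were Tet2-WT against empty vector at Fn1 (covered −27.6 bp, per 10000 −0.054, without 1 library −0.0833 to 0.458) and Col1a2 (−0.625 to 0.0417), Tet2-E against Tet2-WT at Col1a2 (equal lists 0.25, covered 1.0 bp, without 1 library −0.625 to 0.125) and Fn1 (per 10000 0.0308), and Tet2-E against empty vector at Fn1 (equal lists 0.25) and Col3a1 (stricter 0.125). The causes were not tested. Of 84 same-numbered pairs of libraries, 3 correlated above 0.1 (−0.089 to 0.15). Pairs with different numbers were not correlated, so whether replicate numbers pair the libraries was not decided. The replicate block changed no peaks-per-locus call. Among single regions compared with MEFs, calls were lost in 8 comparisons with equal lists, 5 with stricter peaks, 13 with 50% cover and 14 with the block. Calls were gained in 2, 2 and 4 with the first 3 of these, including a lower share at day 10 for chr1:71699164-71700366 at Fn1 with 50% cover (−91.7 points), and none with the block. Regions left in fewer than 2 of the compared libraries by a setting were not tested, and their lost calls are outside these counts. With equal lists at day 5 they included chr6:4511258-4511591, chr1:45373044-45373264 and chr3:54217305-54217634, which had passed with full lists.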
